A study of Mus musculus with 8 samples.

Results

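The genes described here encode the proteins of the cytosolic ribosome. Members were all genes whose single symbol in the platform annotation begins with Rpl or Rps and continues as a ribosomal protein name, with pseudogenes and the Rps6k kinases left out. The rule gave 67 genes among the 17097 genes with a probe set of their own, and 128 of the 28898 single-gene probe sets. Of the 67 genes, 24 encode small subunit proteins, 40 encode large subunit proteins and 3 encode the P stalk. Genes whose symbol fits the rule or that are paired with a member by name, but that had no single-gene probe set (Rpl5, Rpl10l, Rps27 and Rps4l), were not analysed here.

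The ribosome joins a small subunit, which reads the messenger RNA, to a large subunit, which forms the peptide bond, and the P stalk of the large subunit recruits the elongation factors. Its proteins are made in matched amounts, and many of their messenger RNAs begin at a C followed by a run of pyrimidines, the 5′ terminal oligopyrimidine (TOP) tract, through which the kinase complex mTORC1 and the RNA-binding protein LARP1 control their translation. Arrays measure the abundance of these RNAs and not how often they are translated.

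RNA came from Epcam-sorted tumour cells of mouse skin and was hybridised to 8 Affymetrix arrays in 4 groups of 2. In papilloma, a benign skin tumour, cells overexpressing the nuclear receptor NR2F2 (genotype NR2F2 GOF, gain of function) were compared with NR2F2 WT control cells. In squamous cell carcinoma, cells with genotype NR2F2 KO (titled LOF, loss of function) were compared with NR2F2 WT control cells. The design text gives the LOF allele as K5CreER;NR2F2fl/fl, in which the keratin 5 promoter drives an inducible Cre in basal keratinocytes, and its controls as Cre-. How the overexpression was made, how the tumours were induced, and the strain, age and sex of the mice are not given in the sources used here. No label ties an array to an animal. The p-values below therefore reflect how much these arrays vary, which may be technical.

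The start sites of a few members are shown because they carry, or lack, the feature that defines TOP messages. Each stretch runs from 15 bases before the annotated start to 15 bases from it onward, on the coding strand, in RefSeq annotation GRCm38.p6. Capitals mark the unbroken run of C and T that begins at the start. Rps6, Rps18, Rpl28, Rplp2 and Rpl14 begin at a C with at least 4 further pyrimidines, whereas Rpl36a, Rpl39 and Rpl39l do not.
Rps6, chr4:86857353-86857382, minus strand: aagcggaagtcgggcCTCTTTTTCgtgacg
Rps18, chr17:33955651-33955680, minus strand: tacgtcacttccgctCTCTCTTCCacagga
Rpl28, chr7:4792950-4792979, plus strand: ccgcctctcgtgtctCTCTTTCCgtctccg
Rplp2, chr7:141447636-141447665, plus strand: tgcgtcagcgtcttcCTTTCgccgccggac
Rpl14, chr9:120571502-120571531, plus strand: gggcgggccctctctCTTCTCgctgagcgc
Rpl36a, chrX:134585639-134585668, plus strand: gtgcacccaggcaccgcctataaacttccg
Rpl39, chrX:37085208-37085237, minus strand: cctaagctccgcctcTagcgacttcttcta
Rpl39l, chr16:10170213-10170242, plus strand: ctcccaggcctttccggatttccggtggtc

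Promoter stretches of 250 bases before to 50 after a start were found for 53 of the 67 members, with 64 starts. A TOP start in the sense above was annotated at 11 of these 64 starts (17.2%), against 2.51% of the 32851 starts in the RefSeq table. The letters CGGAAG, on either strand, were present in 41 of the 64 member promoters (64.1%) against 16.9% of all promoters. The letters TATAAA, on either strand, were present in 6 (9.38%) against 13.6%. These are matches of letters in annotated sequence and describe no binding or use of a site, and annotated starts can lie a few bases from the true ones.

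The labels were first checked on the targeted gene. Nr2f2 was at log2 2.80 and 2.55 on the control papilloma arrays and at 11.43 and 11.47 on the GOF arrays. In carcinoma it was at 7.93 and 8.14 in control and at 4.77 and 5.0 in LOF (log2 difference -3.15, limma adjusted p = 0.00475). The LOF values lie at the background of those arrays, 5.01 and 4.95, so the true fall may be larger than the difference given. Epcam, the sorting marker, was at 10.17 and 10.57 in control papilloma and at 9.0 and 8.68 in GOF, and it fell by 1.53 on the log2 scale (limma adjusted p = 0.0372), while in carcinoma it lay between 11.36 and 11.79 on all 4 arrays. The highest of the non-mouse control probe sets on each array put the background at log2 3.09 to 3.33 in papilloma and 4.95 to 5.01 in carcinoma. The tumour types were apparently normalized separately, so no level was compared between them.

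The members gave strong signals on every array. Between 60 and 63 of the 67 exceeded log2 10 on each array, where the highest probe set of an array was between 13 and 13.2. Exceptions were Rpl3l, at or below background on all 8 arrays, Rps15a, at or below it on 5, and Rpl39l, at or below it on 3. All 67 passed the filter on low values, but Rpl3l and Rps15a did so only through their values on the carcinoma scale. The level of a probe set depends on its own probes, so the order of members by level is not an order of messenger RNA abundance.

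Gain of NR2F2 in papilloma came with small differences in ribosomal protein RNAs, most of them downward, and none passed the test. The member medians were log2 11.74 and 11.71 on the control arrays and 11.68 and 11.66 on the GOF arrays. Both GOF medians were thus below both control medians. No member was called by limma at an adjusted p under 0.05, against 169 of 13939 genes tested (1.21%). An unadjusted limma p under 0.05 was found for 1 member, Rpl39l, against 2287 of the 13939 genes. Of the 67, 14 lay above 0 and 53 below it, whereas 53.6% of all genes lay above 0. With each array centred on its median, 22 lay above 0. Among the 64 members above background on all 8 arrays, 12 lay above 0. The median log2 difference was -0.05 over the members and 0.02 over all genes, with members ranging from -0.19 to 0.86. In 31 members (46.3%) both GOF arrays were below both control arrays, against 21.3% of all genes. In 7 members (10.4%) both were above, against 27.3%. The remaining 29 overlapped. After centring both were below in 20 members, and the share of all genes was not computed there.

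Loss of Nr2f2 in carcinoma came with differences in the other direction, larger at the median, and again none passed the test. The member medians were log2 11.86 and 11.80 in control and 11.96 and 11.93 in LOF, so the groups did not overlap. No member was called by limma, against 2 of the 13939 genes (0.0143%). An unadjusted limma p under 0.05 was found for 1 member, Rpl36a, against 1921 of the 13939 genes. Of the 67, 62 lay above 0 and 5 below it, whereas 51% of all genes lay above 0. Among the 64 members above background on all 8 arrays, 60 lay above 0. The median log2 difference was 0.12 over the members and 0.01 over all genes, with members ranging from -0.42 to 0.53. The lowest value is that of Rpl39l, which was at or below background on 3 of the 4 carcinoma arrays, and the next lowest was -0.06. In 39 members (58.2%) both LOF arrays were above both control arrays, against 23.8% of all genes. In 1 member, Rps20, both LOF arrays were below (1.49%, against 19.1% of all genes), and 27 members overlapped. Without control replicate 2 the median was 0.06, with 57 members above 0. Without control replicate 1 the LOF arrays were higher without overlap in 59 members. Only 1 control array then had to lie below them, and the share of all genes was not computed in that setting.

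**Figure D1:**
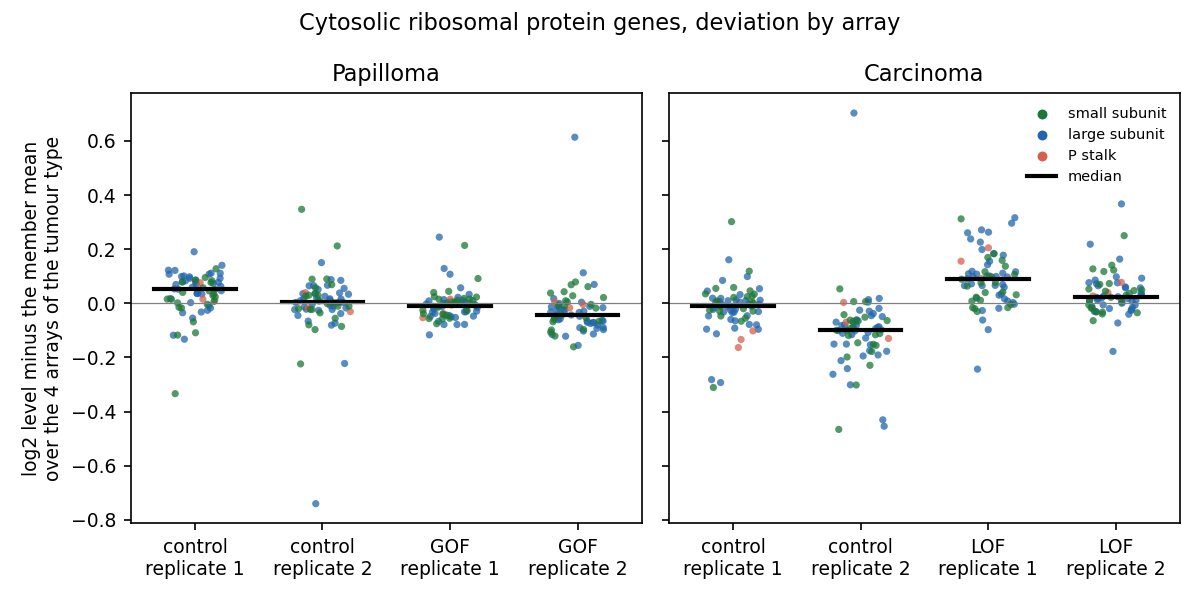
Each point is 1 of the 67 genes on 1 array, plotted as its log2 level minus its mean over the 4 arrays of the same tumour type, with colour for the subunit and a black bar for the median of the array. The papilloma bars lie lower in GOF than in control and the carcinoma bars lie higher in LOF than in control, with control carcinoma replicate 2 the lowest.

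These shifts can be set beside the gap between arrays of the same group. Replicate 2 was lower than replicate 1 at the member median in every group, by 0.05 in control papilloma, 0.03 in GOF, 0.07 in control carcinoma and 0.06 in LOF on the log2 scale. It was lower in 49, 45, 55 and 50 of the 67 members in these groups. The papilloma shift of the member median was therefore about the size of the gap between same-group arrays, and the carcinoma shift was larger than that gap. Single members had tight replicates: their median absolute gap was 0.07 in control papilloma, 0.05 in GOF, 0.10 in control carcinoma and 0.10 in LOF, against 0.22, 0.17, 0.20 and 0.18 over all genes. The limma standard error of a member's difference had a median of 0.13, since it borrows its spread from all genes.

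The effects in the 2 tumour types were next compared gene by gene. No member was called for the difference between the effects, against 11 of 13939 genes (0.0789%), and the smallest limma adjusted p of a member was 0.173. In all, 3 members had an unadjusted limma p under 0.05, namely Rpl36a, Rpl32 and Rpl39l, against 1979 of the 13939 genes. Of the 67 members, 49 were lower in GOF and higher in LOF, 13 were higher in both and 4 were lower in both. The remaining member, Rpl39l, was higher in GOF, and its direction in LOF is not measured, because only 1 of the 4 carcinoma arrays was above background. The LOF direction is likewise not measured for Rps15a, counted among the 49, and Rpl3l, counted among the 13. Both were at or below background on all 4 carcinoma arrays, and Rpl3l was so in papilloma as well.

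**Figure D2:**
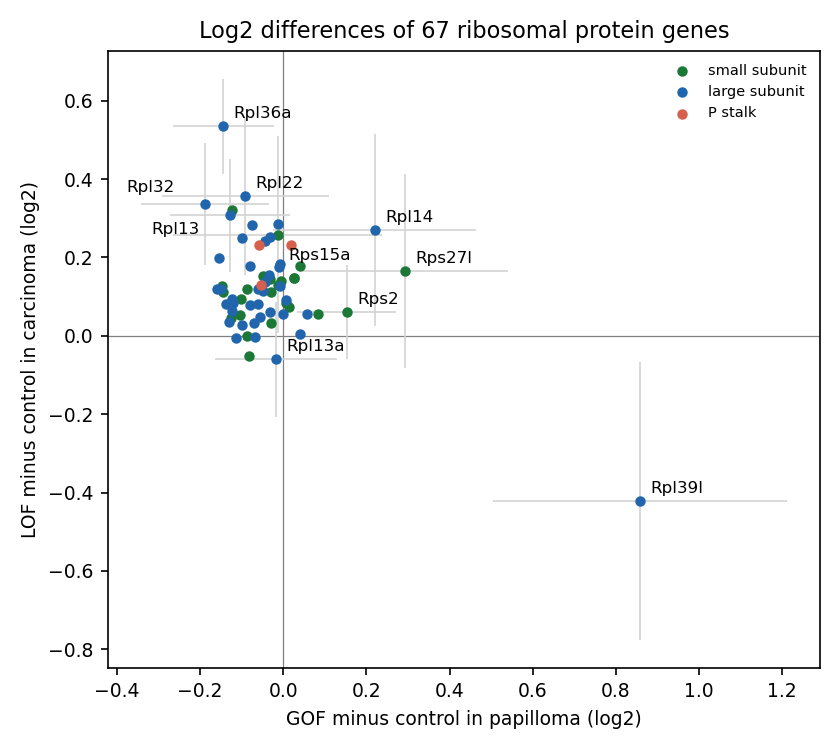
Each point is 1 of the 67 genes, with its log2 difference between GOF and control in papilloma on the x axis and between LOF and control in carcinoma on the y axis, coloured by subunit. Grey lines are 1 limma standard error either way, drawn for labelled genes. In the upper left lie 49 genes. The y value of Rpl39l, at the lower right, rests on arrays of which 3 of 4 were at or below background. Those of Rps15a and Rpl3l rest on arrays that were all at or below background.

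Among small subunit genes, 8 of 24 lay above 0 in GOF (median -0.03) and 23 of 24 in LOF (median 0.12). Rps18, a protein of the subunit head, had the highest LOF difference of the 24. It was at log2 10.94 and 10.65 in control carcinoma and at 11.27 and 10.97 in LOF, with no overlap (log2 difference 0.32 ± 0.16 SE, limma adjusted p = 0.456). Rps6, the substrate of the S6 kinases downstream of mTORC1, was at 12.76 and 12.72 in control carcinoma and at 12.91 and 12.86 in LOF, a difference of 0.15, and its papilloma arrays lay between 12.22 and 12.29. Rpsa, which also serves as a laminin receptor, was at 12.53 and 12.37 in control carcinoma and at 12.62 and 12.57 in LOF. The GOF and control arrays of Rpsa in papilloma lay within 12.41 to 12.44.

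Some small subunit genes went against the majority. Rps2 was at log2 12.28 and 12.36 in control papilloma and at 12.49 and 12.46 in GOF, with no overlap and a difference of 0.15. Rps21 differed by 0.08 in the same direction, though not in the mean of its probe sets. X-linked Rps4x and Rps19, a gene mutated in Diamond-Blackfan anaemia, instead followed the majority. Both were among the lowest in GOF, each with a difference of -0.15. In carcinoma Rps20 was at 12.19 and 12.15 in control and at 12.13 and 12.11 in LOF, a difference of -0.05. It turned to 0.26 when the Rps20 probe sets were averaged. A second bright Rps20 probe set differed by -0.07, and the dim ones by 0.57 and 0.59. The dimmest was at or below background on both control carcinoma arrays. Rps16 differed by less than 0.01. The differences of the brightest probe sets of these genes are all within 1.5 limma standard errors of 0.

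Among large subunit genes, 5 of 40 lay above 0 in GOF (median -0.07) and 36 of 40 in LOF (median 0.12). X-linked Rpl36a had the highest LOF difference of all members. It was at log2 9.67 and 9.72 in control carcinoma and at 10.28 and 10.18 in LOF, a 1.45-fold higher level (log2 0.53 ± 0.12 SE, limma adjusted p = 0.163). Its papilloma arrays were at 10.32 and 10.31 in control and at 10.21 and 10.13 in GOF, lower without overlap (log2 difference -0.14 ± 0.12 SE, limma adjusted p = 0.642). The difference between these effects was -0.68 ± 0.17 SE.

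Rpl32 showed the same order. In carcinoma it was at log2 11.10 and 10.83 in control and at 11.37 and 11.23 in LOF (log2 difference 0.34 ± 0.15 SE, limma adjusted p = 0.410). In papilloma it was at 11.60 and 11.41 in control and at 11.38 and 11.26 in GOF, and its difference of -0.19 was the lowest of all members. Rpl13 was at 10.41 and 10.29 in control carcinoma and at 10.80 and 10.52 in LOF, and Rpl36 at 11.82 and 11.58 against 12.04 and 11.93, both without overlap. Neither was called (limma adjusted p = 0.416 for Rpl13 and 0.431 for Rpl36).

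**Figure D3:**
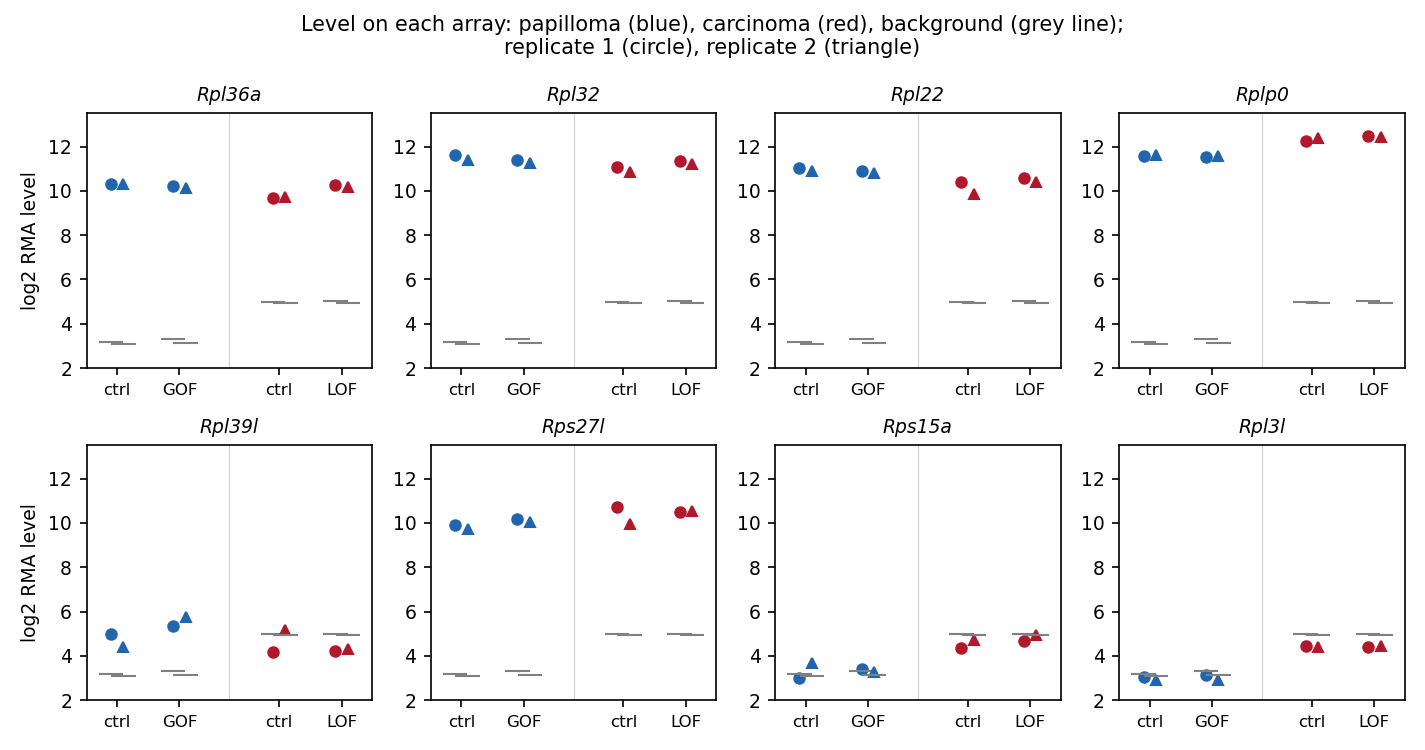
Log2 RMA level of 8 named genes on each array, with control and GOF papilloma in blue, control and LOF carcinoma in red, circles for replicate 1 and triangles for replicate 2, and grey lines for the background of each array. Rpl36a is higher in both LOF arrays than in both carcinoma controls, and Rpl3l lies at or below background on all 8 arrays.

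Rpl22, whose protein is known to repress the messenger RNA of its paralogue Rpl22l1, rested on a single array. It was at log2 10.42 and 9.86 in control carcinoma and at 10.58 and 10.41 in LOF, so that the groups overlapped (log2 difference 0.36 ± 0.20 SE). Without control replicate 2 the difference was 0.08, and without control replicate 1 it was 0.63. Rpl22l1, which is outside the member rule, was at 9.42 and 9.31 in control carcinoma and at 9.08 and 8.75 in LOF, lower without overlap but not called (log2 difference -0.45 ± 0.16 SE, limma adjusted p = 0.286).

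Rpl11, whose protein binds MDM2 when ribosome assembly is disturbed, was at log2 11.56 and 11.49 in control papilloma and at 11.37 and 11.38 in GOF, a difference of -0.15. In carcinoma it was at 11.54 and 11.48 in control and at 11.68 and 11.58 in LOF. Rpl17 and Rpl12 were also among the lowest in GOF, each at -0.16. Rpl41, which encodes a very short peptide, differed by 0.06 in GOF, and by -0.03 in the mean of its probe sets. At the low end of the LOF differences, Rpl13a was at -0.06, and Rpl28 and X-linked Rpl10 differed from control by less than 0.01, with a sign that changed after centring.

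The P stalk genes were all higher in LOF without overlap, and none was called. Rplp0, whose protein anchors the stalk, was at log2 12.25 and 12.39 in control carcinoma and at 12.48 and 12.43 in LOF. Rplp1 was at 11.62 and 11.60 against 11.93 and 11.75 (log2 difference 0.23 ± 0.13 SE, limma adjusted p = 0.485). Rplp2, the dimerisation partner of Rplp1, was at 11.65 and 11.74 against 11.97 and 11.89. In papilloma the stalk genes differed by -0.05, 0.02 and -0.06, in the same order.

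Some members are paralogues of other ribosomal proteins, several of them known to be tissue-restricted, and none was called in either comparison. Rpl39l, the paralogue of Rpl39 best known from testis, was at log2 5.0 and 4.38 in control papilloma and at 5.36 and 5.73 in GOF, above background on all 4 arrays and without overlap. The difference was 0.86 ± 0.35 SE (limma adjusted p = 0.299), from 0.55 to 1.17 when any array was left out. In carcinoma Rpl39l exceeded background only on control replicate 2, at 5.17. Rpl39 itself was at 12.02 and 11.95 in control papilloma and at 11.88 on both GOF arrays.

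Rps27l, a p53 target that is the paralogue of Rps27, was at log2 9.89 and 9.73 in control papilloma and at 10.17 and 10.03 in GOF. The groups did not overlap, and the difference of 0.29 ± 0.25 SE was not called (limma adjusted p = 0.644). In carcinoma its arrays overlapped, at 10.74 and 9.97 in control and 10.48 and 10.56 in LOF. Rpl3, a protein near the peptidyl transferase centre, differed by -0.06 in GOF and 0.08 in LOF, and its striated muscle paralogue Rpl3l gave no signal above background. Rpl14 was measured by a dimmer probe set, at 7.95 and 7.72 in control papilloma and at 8.05 and 8.06 in GOF, and 4 further Rpl14 probe sets that carry a second symbol were not used.

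In carcinoma the differences were larger for members with dimmer probe sets. The 23 dimmest members (mean log2 level 4.43 to 11.6) had a median LOF difference of 0.16, the 22 in the middle (11.7 to 12.1) of 0.10 and the 22 brightest (12.1 to 13.1) of 0.08. Spearman's rho between level and LOF difference was -0.479 over the 67 members, and that between level and GOF difference was 0.146. These are descriptions across genes that share the same 4 arrays. The part of the array's upper range in this order was not tested.

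**Figure D4:**
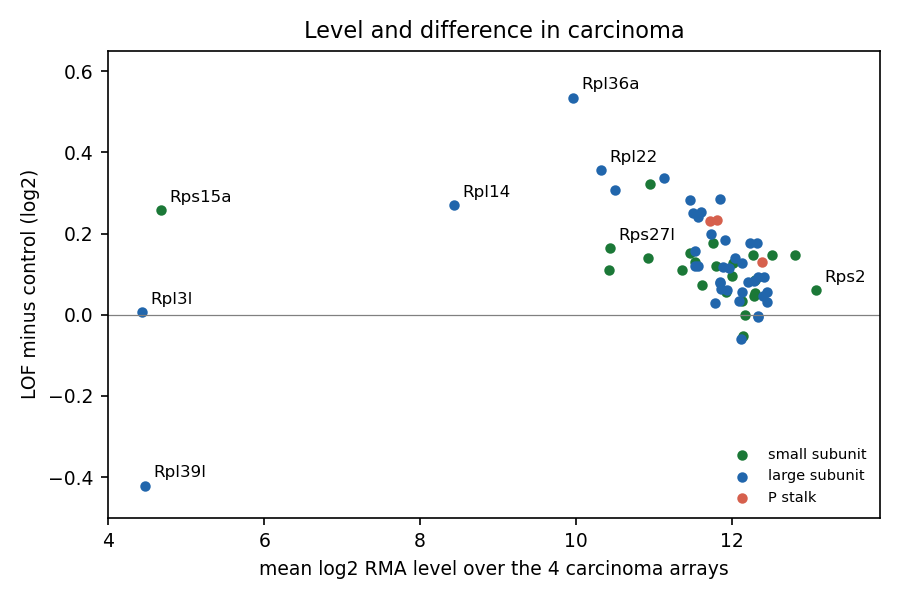
Each point is 1 of the 67 genes, with its mean log2 RMA level over the 4 carcinoma arrays on the x axis and its log2 difference between LOF and control on the y axis, coloured by subunit. Rpl36a is highest at 0.53, Rpl39l, Rps15a and Rpl3l lie at the level of the background, and Rps2 is the brightest.

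Further probe sets of the same genes gave the same majority direction. Of the 61 single-gene probe sets not used above, 43 were lower in GOF (median -0.06) and 52 were higher in LOF (median 0.15). Among the 48 of them above background on all arrays, 36 were lower in GOF and 40 higher in LOF. Single genes disagreed, however. A second Rpl22 probe set differed by -1.39 in GOF where the brightest differed by -0.09. Probe sets of Rpl13 ran from -0.29 to 0.31 in LOF, those of Rpl17 from -0.46 to 0.63, those of Rps24 from 0.12 to 1.46 and those of Rps20 from -0.07 to 0.59. Of the 67 brightest probe sets, 5 had the suffix s_at and 19 the suffix x_at, which mark probes that can match related sequences, and ribosomal protein genes have many near-identical processed copies.

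Other genes that make or regulate ribosomes were followed in lists. Of 18 assembly and export factors, 16 were tested. In LOF all 16 lay above 0, against 51% of all genes, and 13 were higher without overlap, against 23.8% of all genes. Their median was 0.57, and none was called. The lowest p-values were those of Mrto4, a factor that holds the place of the P stalk in precursors, at 0.70 (limma adjusted p = 0.141), and Nob1, the nuclease that trims the small subunit RNA, at 0.88 (limma adjusted p = 0.142). In GOF 9 of the 16 lay above 0 (median 0.12). Rpf2, which loads the 5S particle with Rpl5 and Rpl11, rose from 5.39 and 5.76 to 6.60 and 6.73 (log2 1.09 ± 0.18 SE, limma adjusted p = 0.0494). This call was lost in 12 of 18 other settings, where its limma adjusted p reached 0.26. The export adaptor Nmd3 differed by -0.53 and was not called.

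Of 17 translation factors and other genes with TOP messages, 15 were tested. In GOF 4 lay above 0 (median -0.09), in LOF 13 did (median 0.07), and none was called. Eif4b, an initiation factor, differed by -0.43 in GOF and 0.30 in LOF, and the elongation factor Eef2 by -0.18 in GOF. In LOF Hnrnpa1 and Eef1g differed by 0.42 and 0.29. Of 18 genes of mTORC1, LARP1, MYC and the promoter factors, 14 were tested, with medians of -0.07 in GOF and 0.16 in LOF and none called. Mlst8, a subunit of the mTOR complexes, was at 5.07 and 5.11 in control papilloma and at 4.45 and 4.44 in GOF (log2 difference -0.64, limma adjusted p = 0.0635), and it differed by 0.54 in LOF (limma adjusted p = 0.156). Eif4ebp1 differed by 0.60 in GOF and Larp1 by 0.56 in LOF.

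Of 11 further genes with ribosomal names, 5 were tested and none was called, with medians of 0.06 and 0.15. Rps3a1 differed by -0.11 in GOF, and Rpl7l1 differed by 0.68 in LOF. Of the 4 genes of the MDM2 checkpoint, 3 were tested and none was called, with Mdm2 at -0.17 and Mdm4 at -0.61 in GOF. In LOF they were at -0.22 and -0.26, and both changed sign when 1 array was left out.

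Markers of other cells moved with the groups. In bulk samples, fewer cells of a type and less RNA per cell cannot be told apart. All 10 macrophage markers lay above 0 in GOF (median 2.21), and 9 were higher without overlap, against 27.3% of all genes. Lyz2 and C1qc were called higher. The summed level of the list (as log2) was 6.57 and 6.46 in control papilloma and 9.24 and 10.2 in GOF. Of these 10, 6 and 4 were at or below background on the control arrays and none on the GOF arrays. All 7 endothelial markers were higher in GOF without overlap (median 2.16), and 5 were called (Plvap, Emcn, Egfl7, Flt1 and Cdh5). Their summed levels were 6.54 and 6.43 in control and 8.67 and 8.79 in GOF, over all 7. Of 10 keratinocyte markers, 4 lay above 0 in GOF (median -0.29), with Krt8 called higher and Epcam and Col17a1 called lower. Each of these 10 calls was lost in 4 or more of the other settings, mostly those that left out an array. None of the 6 T cell, 4 neutrophil, 5 fibroblast or 2 melanocyte markers tested was called in GOF. All 4 neutrophil and all 5 fibroblast markers lay above 0 there, however, with medians of 0.74 and 0.79. Of the neutrophil markers, S100a8 and S100a9 differed by 0.95 and 1.27, and Cxcr2 by 0.03 with overlap. Csf3r exceeded the papilloma background only on GOF replicate 2. Above 0 were also 4 of the 6 T cell markers (median 0.07) and 1 of the 2 melanocyte markers (median -0.11).

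In LOF no gene of the 7 marker lists was called, but all 10 macrophage, 7 endothelial, 4 neutrophil and 5 fibroblast markers tested lay below 0, with medians of -0.84, -0.65, -0.79 and -1.01. The other lists mostly lay below 0 as well. Above 0 were 1 of 10 keratinocyte markers (median -0.19), 2 of 6 T cell markers (median -0.26) and 0 of 2 melanocyte markers (median -0.24). The summed macrophage level was 8.73 and 10.3 in control carcinoma and 8.67 and 8.94 in LOF, with 2, 0, 5 and 2 of the 10 genes at or below background. The summed endothelial level was 8.58 and 9.45 in control and 8.24 and 8.27 in LOF, without overlap. The summed fibroblast level was 11.0 and 12.3 in control and 10.1 and 11.4 in LOF. Control replicate 2, the array with the lowest ribosomal protein median in carcinoma, had the highest summed macrophage, endothelial, T cell, neutrophil and fibroblast levels of the 4 carcinoma arrays. Its T cell sum was led by Thy1, at 5.48 on control replicate 1 and 7.53 on control replicate 2. Cd3e and Cd3g were at or below background on all 8 arrays, so a T cell difference is not shown. The part of these cells in the ribosomal protein differences was not tested.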

How the data were processed

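The authors deposited log2 expression values per probe set, normalized with the RMA algorithm, per the labels' protocols; the submitters' processing notes name RMA and affy, with versions not given. A perfect-match array gives intensities and no read depth, so precision is limited by how few arrays there are. Of 45141 probe sets, 104 were controls, 28898 had 1 gene symbol, 551 several and 15588 none, and 28689 were matched by Entrez number to RefSeq GRCm38.p6. Probe sets above log2 4.23, the median of all values, on at least 2 of 8 arrays were kept, and the brightest per gene was used, leaving 13939 genes.

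The test was limma 3.58.1 in R 4.3.3, with 1 mean per group over 8 arrays and Benjamini-Hochberg adjustment over all genes at 0.05. The contrasts were GOF minus control in papilloma, LOF minus control in carcinoma, and their difference. An exact permutation test of 2 arrays against 2 cannot give a p below 0.333. The fit was tested on simulated data. Background on each array was the highest level among 44 non-mouse control probe sets.

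Replicate numbers were not taken as pairs: over all genes, deviations of same-numbered arrays correlated at 0.00 in papilloma and 0.13 in carcinoma, over 2 pairs each. Over the members alone the values were -0.48 and 0.01. Such a correlation across genes does not register an offset shared by all genes, and replicate 2 was lower at the member median in every group. The named members were those called, the 6 highest and 6 lowest per comparison, the stalk, checkpoint and paralogue genes, Rps6 and Rpsa. Of each list the called genes and the 2 with the smallest p were named. Uncalled cell type markers are instead given as counts and summed levels, except for a few T cell and neutrophil markers named after their values were seen. The lists held other ribosomal names, TOP messages, mTORC1 and promoter regulators, assembly factors, the MDM2 checkpoint and 7 sets of cell type markers. Disagreeing probe sets, Rps24 and the genes of the sequence lines were added after their values or sequences were seen, as were the motifs. Members and lists were chosen with earlier results of these data known.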

Additional observations from a re-analysis of the deposited data

How the results depend on the processing

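No member was called in GOF or LOF under 18 other settings, or for the difference between the effects under the 17 that allow it, though 3 members dropped out of the fit where the filter was set within each tumour type and 8 where s_at and x_at probe sets were left out. With a replicate block, 3 genes instead of 169 were called in GOF and 0 instead of 2 in LOF. In LOF the count over all genes was also 0 with the mean of probe sets and with only the 4 carcinoma arrays, and 32 with a trended and robust prior. Leaving out any of the 8 arrays moved both counts, from 1 (without GOF replicate 2) to 297 (without either carcinoma control) in GOF and from 0 (without any 1 of the GOF or LOF arrays) to 122 (without control carcinoma replicate 1) in LOF. The fall of Nr2f2 in LOF was no longer called in 7 of the 18 settings and that of Epcam in GOF in 8, with limma adjusted p up to 0.351 and 0.227.

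The member median in LOF, 0.119, was 0.0861 after quantile normalization and 0.152 with each array centred on its median, and from 0.0616 to 0.149 with 1 array left out. The GOF median, -0.0544, ran from -0.0874 (without control replicate 2) to -0.036 (without control replicate 1). Centring gave 22 instead of 14 members above 0 in GOF and 20 instead of 31 lower without overlap. With 1 array left out, 14 to 21 members lay above 0 in GOF and 57 to 62 in LOF. In these settings 31 to 46 were lower without overlap in GOF and 39 to 59 higher in LOF. Groups separate more easily where 1 of them has a single array, and the matching shares of all genes were not computed. These counts of members were added after seeing the data.

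Of 74 values of single genes, those that changed sign were not called in any setting. In LOF, Rpl10 was at 0.0304 and Rpl28 at 0.028 after centring, Rps16 at -0.0115 after quantile normalization, and Rpl10 at 0.0243 and Rps20 at 0.261 with the mean of probe sets. The mean of probe sets also gave -0.028 for Rpl41, -0.0037 for Rps21 and -0.0993 for Rps6 in GOF. Without s_at and x_at probe sets, Rpl41 was at -0.143 in GOF, and Rpl10 at 0.051 and Rps20 at 0.574 in LOF. With 1 array left out, the LOF values ran from -0.314 to 0.114 for Epcam, -0.813 to 0.369 for Mdm2, -0.661 to 0.146 for Mdm4, -0.0205 to 0.0156 for Rpl10, -0.0645 to 0.0549 for Rpl28, -0.914 to 0.0715 for Rpl39l, -0.0058 to 0.0059 for Rps16 and -0.22 to 0.548 for Rps27l. The GOF values ran from -0.129 to 0.0081 for Rpl3, -0.00135 to 0.0402 for Rplp1 and -0.00445 to 0.0577 for Rps6. The pooled SD of the array member medians within groups was 0.0161 in papilloma and 0.0314 in carcinoma, from 2 arrays per group.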
